A study of Mus musculus with 18 samples.

Results

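The 31 genes described here encode the matrix of cartilage, proteins that its cells secrete or carry on their surface, enzymes that build and sulfate chondroitin sulfate, and signalling and transcription proteins of chondrocytes, the cells of cartilage. They were chosen by gene symbol, with earlier results of these data known, and each of the 31 symbols was found among the 23929 gene names of the deposited tables. RNA was sequenced from C57BL/6 mouse embryos that were either wild type or lacked Pitx1 (Pitx1-/-, written knockout below), a homeodomain transcription factor gene of the hindlimb. The tissue was the hindlimb field with the trunk around it at embryonic day 9.5 (E9.5) and the hindlimb at E11.5 and E12.5, and each of the 6 groups of stage and genotype held 3 libraries, 18 in all. By its title the series asks about PITX1 in the formation of hindlimb cartilage and muscle. The labels leave out what the allele deletes of Pitx1, whether embryos were pooled, or whether replicates came from separate embryos or litters. The tests therefore capture no more than the variation among these libraries, part of which may be technical.

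Limb cartilage begins when mesenchymal cells condense and, under the transcription factor SOX9 with its partners SOX5 and SOX6, start to secrete fibrils of collagens II, IX and XI that trap aggrecan, a proteoglycan loaded with chondroitin sulfate. Link protein, matrilins and COMP hold these parts together. The chondrocytes later pass from division to hypertrophy, a step timed by Indian hedgehog, the receptor of parathyroid hormone-related protein, FGFR3 and RUNX factors, and the hypertrophic cells make collagen X.

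Depth ranged from 14433303 to 60672151 fragments per library. The knockout libraries were all shallower than the wild-type libraries at E9.5 and all deeper at E11.5. Pitx1 RNA, the check of the genotype labels, was lower in each knockout library than in each wild-type library of its stage, at 18.3 to 25.05 against 48.5 to 58.8 RPKM (fragments per kilobase of transcript scaled by library size, from the authors' tables) at E9.5, 17.3 to 23.2 against 109 to 138 at E11.5 and 10.8 to 13.4 against 44.6 to 114 at E12.5. Wild-type replicate 3 of E12.5 stood apart, with 44.6 RPKM of Pitx1 and the lowest summed level of the red blood cell genes of its stage. The 10 limb mesenchyme markers were detected in every group, and their summed level at E11.5 was 881 to 944 RPKM in wild-type and 903 to 1105 in knockout libraries, and 842 to 1041 and 937 to 1143 at E12.5.

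Of the 31 genes, 25 had an entry with promoter sequence in RefSeq (build GRCm38.p6), with 33 windows of 250 bases before the annotated start among them. Windows are printed for 4 of the 5 genes that passed the test at E11.5, each lower in the knockout. Coordinates are in the same build, and the sequence runs in the direction of the gene. Epyc, which encodes a small leucine-rich proteoglycan, is added as the window with the most matches to the SOX-type motif searched. Capitals mark those matches.
Matn1 (chr4:130944135-130944384, + strand): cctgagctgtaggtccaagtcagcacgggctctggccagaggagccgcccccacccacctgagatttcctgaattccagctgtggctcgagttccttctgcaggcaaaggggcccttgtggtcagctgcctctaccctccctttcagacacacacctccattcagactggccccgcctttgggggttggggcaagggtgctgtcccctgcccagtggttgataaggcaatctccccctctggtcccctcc
Lect1, under its RefSeq symbol Cnmd (chr14:79662184-79662433, - strand): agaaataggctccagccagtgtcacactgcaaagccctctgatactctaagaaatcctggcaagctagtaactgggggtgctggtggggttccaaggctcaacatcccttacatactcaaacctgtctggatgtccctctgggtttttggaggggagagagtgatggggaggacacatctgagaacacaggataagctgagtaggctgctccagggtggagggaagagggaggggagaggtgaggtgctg
Cytl1 (chr5:37735269-37735518, + strand): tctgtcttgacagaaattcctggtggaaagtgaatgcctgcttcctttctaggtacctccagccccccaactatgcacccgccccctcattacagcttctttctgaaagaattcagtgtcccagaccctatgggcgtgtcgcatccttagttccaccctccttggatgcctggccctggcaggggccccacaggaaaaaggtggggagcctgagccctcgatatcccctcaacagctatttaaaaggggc
Wwp2 (chr8:107436120-107436369, + strand): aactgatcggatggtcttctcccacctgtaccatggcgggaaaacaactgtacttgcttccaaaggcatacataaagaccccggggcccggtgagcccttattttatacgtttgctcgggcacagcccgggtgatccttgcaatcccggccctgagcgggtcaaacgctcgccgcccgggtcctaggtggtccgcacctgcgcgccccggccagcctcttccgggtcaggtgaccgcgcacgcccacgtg
Epyc (chr10:97646853-97647102, + strand): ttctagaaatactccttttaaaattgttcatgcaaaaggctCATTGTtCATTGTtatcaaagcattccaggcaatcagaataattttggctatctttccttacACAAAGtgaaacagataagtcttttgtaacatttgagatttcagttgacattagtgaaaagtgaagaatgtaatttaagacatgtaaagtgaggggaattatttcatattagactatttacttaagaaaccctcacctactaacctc
Both strands were searched for a bicoid-type homeodomain motif, spelled TAATCC, and for a SOX-type motif, spelled ACAAAG or ACAATG. The bicoid-type letters were in 0 of the 33 windows and in 6.252% of all 32851 windows of the same length. The SOX-type letters were in 4 of the 33, or 12.121%, and in 25.241% of all windows. Those 4 windows belonged to Col10a1, Pth1r and Epyc, the last with 2 windows. The windows of the cartilage genes had a median GC content of 60.4% against 52.4% over all windows. A match is a string of letters and not a bound site, and distal elements were not searched.

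At E9.5 the cartilage genes were low and showed no difference between genotypes that passed the test. Hapln1, which encodes link protein, had the highest mean level in the wild type (29.2 RPKM) and Col2a1, which encodes the main collagen of cartilage, in the knockout (29.3 RPKM), and the median of the 31 genes was 0.854 RPKM in wild-type and 0.830 in knockout libraries. A group mean of at least 1 RPKM was reached by 13 genes in wild-type and 14 in knockout embryos. Too low for a test were 9 genes, namely Col10a1, Acan, Matn1, Comp, Chad, Epyc, Ucma, Scrg1 and Runx3. Of the 22 tested with edgeR's quasi-likelihood test on the deposited fragments, 0 passed an adjusted p of 0.05 (0.0217% of all 13804 genes tested passed), 0 passed with DESeq2 (0.138% of all genes), and 1 had an unadjusted p under 0.05 (4.01% of all genes). That gene was Hapln1, with 23.6, 28.3 and 35.6 RPKM in wild-type replicates 1 to 3 against 15.7, 22.3 and 21.1 in the knockout, so that the groups did not overlap (log2 fold change -0.57 ± 0.18 SE, edgeR adjusted p = 0.999). The groups also did not overlap, with the knockout lower, for Col9a3 and Matn3, 3 of the 22 genes tested against 4.59% of all genes. The median log2 fold change was 0.06 for the genes tested and -0.004 for all genes.

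Of the matrix genes with per-library values at the later stages, Col2a1 was at 25.1, 30.1 and 21.6 RPKM in wild-type replicates 1 to 3 of E9.5 and at 33.7, 21.7 and 32.4 in the knockout. Col9a1, a chain of collagen IX, was at 8.74, 13.5 and 6.72 against 11.2, 9.48 and 14.6 RPKM. The groups overlapped for both genes. Wwp2, at 19.9, 19.00 and 20.7 RPKM in the wild type and 20.6, 20.8 and 19.8 in the knockout, was close to its group mean in each library. Lect1 had 0.741, 0.217 and 0.341 against 0.558, 0.352 and 0.970 RPKM. For Cytl1, the levels were 0.881, 0.695 and 0.695 against 0.828, 0.845 and 0.816 RPKM. Nkx3-2, which encodes a transcription factor of early cartilage, had 1.12, 1.48 and 0.310 against 2.03, 0.264 and 2.25 RPKM. These 4 genes also overlapped between genotypes. Among those too low to test, Acan, the aggrecan gene, was at 0, 0.0312 and 0.0696 against 0.0412, 0.0152 and 0.0264 RPKM, and Runx3 at 0, 0.0969 and 0.0623 against 0, 0.0442 and 0.0342 RPKM. Matn1 was listed at 0, 0 and 0 RPKM in the wild type and 0.0546, 0.0302 and 0.0350 in the knockout, and Col10a1 at 0, 0 and 0.0131 against 0, 0 and 0 RPKM, so that no difference could be read at this depth.

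At E11.5 a set of cartilage genes was lower in the knockout hindlimb. Col2a1, the matrilin gene Matn1, Lect1 (chondromodulin, a matrix protein that inhibits vessel growth), Cytl1 (a small secreted protein made by chondrocytes) and Wwp2 (a ubiquitin ligase gene that is a SOX9 target and hosts the cartilage microRNA miR-140) fell, and none of the cartilage genes rose. These were 5 of the 25 tested with edgeR, while 1.01% of all 14601 genes tested passed and were lower. Fold changes were negative for 22 of the 25, with a median log2 fold change of -1.12 against -0.01 for all genes. For 13 of the 25 each knockout library lay below each wild-type library, against 14% of all genes. DESeq2 called 12 lower, these 5 among them, against 4.66% of all genes. In these bulk samples, fewer cartilage cells and less RNA per cartilage cell cannot be told apart. Col10a1, Chad, Epyc, Ucma, Scrg1 and Ihh were too low to test. No call held when each library was left out in turn. Without wild-type replicate 1, wild-type replicate 2 or knockout replicate 3, 0 of the 5 passed, without knockout replicate 2 only Lect1 did, and without knockout replicate 1 Col2a1, Matn1 and Lect1 did. Without wild-type replicate 3 Cytl1 no longer passed and Susd5 did.

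At E12.5 the levels in the knockout lay below those of the wild type across most of the genes, and none passed the test. Of the 31 genes, 30 were tested, all but Ucma, which encodes a growth plate matrix protein and had at most 11 fragments in any group. Adjusted p was under 0.05 for 0 of the 30 with edgeR (0.0138% of all 14494 genes tested passed, all lower), while 23 had an unadjusted p under 0.05, all lower (8.5% of all genes were lower at that level). DESeq2 called 20 of the 30 lower, against 2.32% of all genes. Fold changes were negative for 28 of the 30, with a median log2 fold change of -0.97 against 0.00 for all genes, and for 22 of the 30 each knockout library lay below each wild-type library, against 10.3% of all genes. The smallest adjusted p were those of Col11a1 and Scrg1 (0.093 each) and Chad (0.0965). Without wild-type replicate 3, the library that stood apart, Lect1 passed, and without knockout replicate 3 Matn4 passed.

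**Figure D1:**
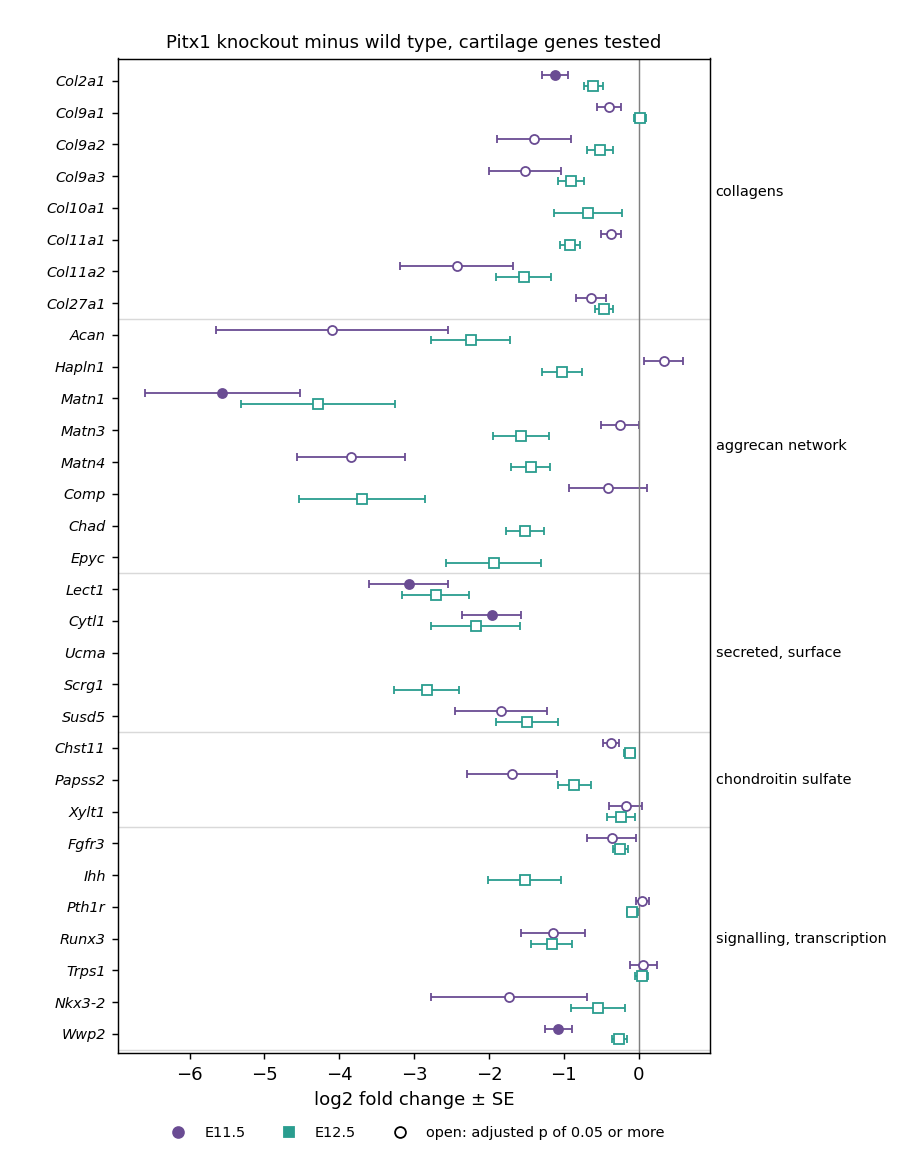
Log2 fold change (knockout minus wild type, x axis) with its standard error for each cartilage gene tested (y axis, grouped by role) at E11.5 (circles) and E12.5 (squares), 3 libraries per group. Filled symbols mark an adjusted p under 0.05, which 5 genes reached at E11.5 and 0 at E12.5, and most points lie left of zero at both stages.

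The collagen genes all had a negative fold change at E11.5, with a median log2 fold change of -1.12 over the 7 tested. Of the 7, 5 did not overlap between genotypes, with the knockout lower, against 14% of all genes. At E12.5 the fold change was negative for 7 of 8, with a median of -0.64, and 6 did not overlap, against 10.3% of all genes. Col2a1 fell at E11.5. Its level was 118, 128 and 92.8 RPKM in wild-type replicates 1 to 3 and 64.5, 43.5 and 48.4 in the knockout, a 2.17-fold lower level (log2 fold change -1.12 ± 0.17 SE, edgeR adjusted p = 0.0317). All 3 knockout libraries lay below the lowest wild-type library. At E12.5 Col2a1 measured 205, 187 and 173 RPKM in the wild type against 100.1, 130.3 and 142 in the knockout, again without overlap (log2 fold change -0.61 ± 0.13 SE, adjusted p = 0.16). The knockout mean was 46.1% of the wild-type mean at E11.5 and 65.8% at E12.5.

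Col11a1 and Col11a2 encode chains of collagen XI, the core of the thin fibrils. Col11a1 had 18.3, 25.2 and 18.3 RPKM in the E11.5 wild type and 17.3, 13.97 and 16.5 in the knockout (log2 fold change -0.37 ± 0.14 SE, adjusted p = 0.162). One day later the values were 37.7, 41.1 and 51.7 and 19.9, 23.8 and 25.3 RPKM (adjusted p = 0.093, log2 fold change -0.92 ± 0.14 SE), with the groups apart at both stages. Col11a2, the second chain, was lower in level and had the larger fold differences. It had 3.34, 4.79 and 1.73 against 1.09, 0.180 and 0.551 RPKM at E11.5 (log2 fold change -2.43 ± 0.76 SE, adjusted p = 0.162). One day later the level was 9.21, 11.01 and 11.96 against 1.76, 4.27 and 5.06 RPKM (adjusted p = 0.215, log2 fold change -1.53 ± 0.37 SE). Col27a1, a further fibril collagen of cartilage, overlapped between genotypes at E11.5 (7.80 to 11.7 against 4.96 to 7.81 RPKM) and did not at E12.5 (13.6 to 14.1 against 8.33 to 11.9 RPKM), with log2 fold changes of -0.64 ± 0.20 and -0.46 ± 0.12 (SE) that did not pass.

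The 3 chains of collagen IX, which sits on the surface of the collagen II fibrils, are best taken one by one. Col9a1 had 55.8, 79.3 and 63.2 RPKM in the E11.5 wild type and 60.02, 44.6 and 46.6 in the knockout, with overlap (log2 fold change -0.40 ± 0.16 SE, adjusted p = 0.187). By E12.5 it had 121, 97.6 and 102 and 108, 121 and 112 RPKM, and each group lay across the other (log2 fold change 0.02 ± 0.08 SE, adjusted p = 0.943). Col9a2 and Col9a3, by contrast, did not overlap between genotypes at either stage. Col9a2 had 32.6, 47.4 and 22.8 against 20.9, 7.77 and 10.3 RPKM at E11.5 and 117, 95.04 and 85.2 against 54.1, 70.4 and 83.3 at E12.5. Col9a3 had 21.4, 29.5 and 14.1 against 11.99, 4.50 and 6.20 RPKM at E11.5 and 77.04, 68.02 and 73.2 against 28.4, 40.3 and 47.7 at E12.5. Their log2 fold changes were -1.39 ± 0.49 and -1.52 ± 0.48 (SE) at E11.5 and -0.52 ± 0.18 and -0.91 ± 0.18 at E12.5, with adjusted p from 0.155 to 0.282.

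The levels of the chains were also set against each other within each library. The RPKM of Col9a3 divided by that of Col9a1 was 0.636, 0.697 and 0.715 in wild-type replicates 1 to 3 of E12.5 and 0.263, 0.335 and 0.426 in the knockout. For Col9a2 over Col9a1 the ratios were 0.969, 0.974 and 0.832 and 0.502, 0.584 and 0.745. Neither ratio overlapped between genotypes at E12.5, and both were chosen after the levels were seen and are given without a test. At E11.5 the wild-type ratios were 0.583, 0.598 and 0.360 for Col9a2 and 0.384, 0.372 and 0.223 for Col9a3, and the knockout ratios were 0.349, 0.174 and 0.220 and 0.200, 0.101 and 0.133. An exon of Col9a3 overlaps one of Tcfl5 on the opposite strand, whose level was 0.352 to 5.60 RPKM over the 18 libraries.

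**Figure D2:**
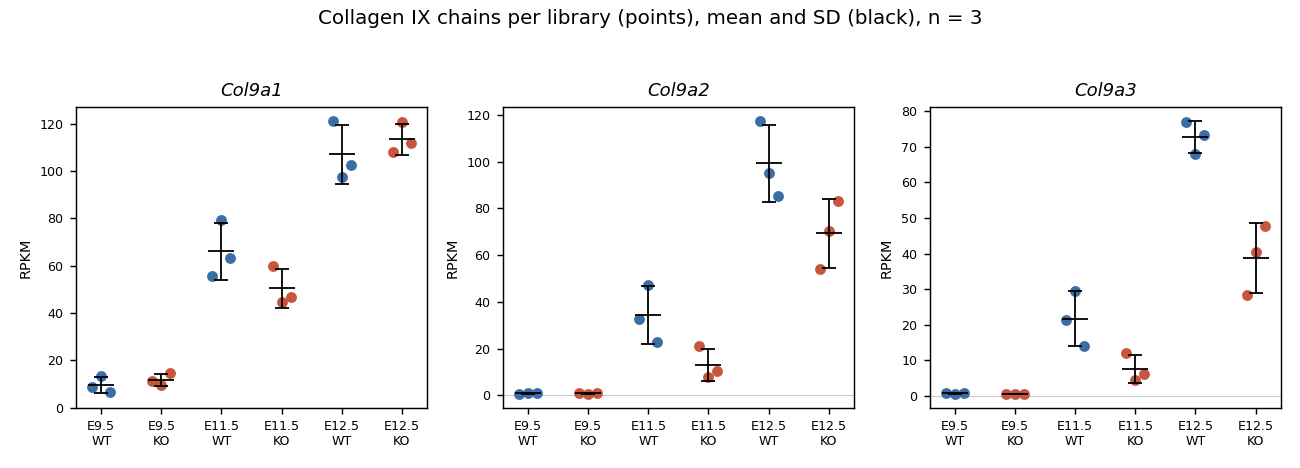
RPKM (y axis) of the 3 collagen IX chain genes in each library (points) of each stage and genotype (x axis), with mean and SD in black. Wild type and knockout overlap at E12.5 for Col9a1 and are apart at E11.5 and E12.5 for Col9a2 and Col9a3; levels of different stages come from separately normalized tables.

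Col10a1, the collagen of hypertrophic chondrocytes, was close to the limit of detection. In all it had 18 fragments over the 3 wild-type libraries of E11.5 and 2 over the 3 of the knockout, at 0, 0.136 and 0 against 0.0106, 0 and 0 RPKM per library, too few to test. At E12.5 it had 0.381, 0.636 and 1.15 RPKM in the wild type against 0.272, 0.502 and 0.594 in the knockout, from 224 and 108 fragments, with overlap (log2 fold change -0.67 ± 0.45 SE, adjusted p = 0.508). An exon of Col10a1 overlaps one of Nt5dc1 on the opposite strand, which measured 3.09 to 6.02 RPKM, and since the strand setting of the counting is not given, reads of the pair may not have been separated.

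In the aggrecan network, Matn1 fell at E11.5 and the other 5 genes tested did not pass. At E12.5 each of the 8 genes had a negative fold change, with a median log2 fold change of -1.76. None of the 8 overlapped between genotypes (10.3% of all genes lay apart with the knockout lower), although 0 passed with edgeR. Unadjusted p was under 0.05 for 8, all lower (8.5% of all genes), and DESeq2 called 7 lower (2.32% of all genes). Matn1 encodes matrilin 1, which links aggrecan and collagen fibrils, and had 0.735, 1.76 and 0.346 RPKM in the wild type against 0.0516, 0 and 0 in the knockout, from 225 and 6 fragments in all (log2 fold change -5.56 ± 1.03 SE, edgeR adjusted p = 0.0398). By E12.5 it measured 6.98, 16.96 and 14.98 against 0.233, 0.0348 and 1.82 RPKM (adjusted p = 0.221, log2 fold change -4.29 ± 1.03 SE). The lowest wild-type library of E12.5 was above the highest knockout library, and the knockout mean was 5.37% of the wild-type mean.

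Acan, the gene of aggrecan itself, was uneven among the E11.5 wild-type libraries. They had 0.451, 1.82 and 0.0735 RPKM and the knockout libraries 0.108, 0.00890 and 0.0149, so that the lowest wild-type library lay below the highest knockout library (log2 fold change -4.10 ± 1.55 SE, adjusted p = 0.22). At E12.5 the values were 4.64, 5.90 and 8.69 and 0.479, 1.498 and 2.08 RPKM, now without overlap (log2 fold change -2.25 ± 0.53 SE, adjusted p = 0.215). Knockout Acan was 21.1% of the wild-type mean at that stage.

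Matn4, another matrilin gene, had 13.03, 22.5 and 9.48 RPKM in the E11.5 wild type and 1.96, 0.352 and 0.867 in the knockout, without overlap but short of the threshold (log2 fold change -3.85 ± 0.72 SE, adjusted p = 0.0736). At E12.5 it had 60.7, 54.2 and 59.03 against 14.5, 19.97 and 30.5 RPKM (adjusted p = 0.155, log2 fold change -1.44 ± 0.26 SE). All 3 E12.5 knockout libraries were above the highest E11.5 value of their genotype, a comparison across separately normalized tables. Rbpjl, which overlaps Matn4 on the opposite strand, was at most 0.187 RPKM in any library.

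Hapln1, Matn3 and Comp had log2 fold changes closer to 0 at E11.5 than at E12.5. Hapln1 had 4.30, 5.80 and 8.73 RPKM in the E11.5 wild type and 6.67, 8.81 and 8.21 in the knockout (log2 fold change 0.33 ± 0.26 SE), and 10.1, 9.37 and 17.5 against 5.09, 6.19 and 6.98 at E12.5 (log2 fold change -1.02 ± 0.26 SE, adjusted p = 0.221). Matn3, a matrilin gene of growing cartilage, had 1.27 to 1.79 against 0.957 to 1.63 RPKM at E11.5 and 1.86, 2.81 and 4.65 against 0.685, 1.15 and 1.31 at E12.5 (log2 fold change -1.57 ± 0.38 SE, adjusted p = 0.188). Comp, which encodes a pentameric protein that binds collagen fibrils, was near 0 at E11.5 with 47 and 48 fragments in all. In the E12.5 wild type Comp was spread widely, at 0.502, 2.02 and 4.57 RPKM against 0.0942, 0.239 and 0.205 in the knockout (log2 fold change -3.70 ± 0.85 SE, adjusted p = 0.189). All 3 genes were without overlap at E12.5 and overlapped at E11.5.

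Chad and Epyc, small leucine-rich matrix proteins, could be tested only at E12.5. Chad had 2.69, 2.81 and 3.23 RPKM in the wild type against 0.723, 1.17 and 1.14 in the knockout (log2 fold change -1.52 ± 0.25 SE, adjusted p = 0.0965). The spread of Chad within each genotype was small beside the gap between them. Epyc had 0.406, 0.602 and 1.93 and 0.193, 0.330 and 0.246 RPKM, from 166 and 32 fragments (log2 fold change -1.94 ± 0.63 SE, adjusted p = 0.261).

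Lect1 and Cytl1, the secreted proteins, both fell at E11.5. Lect1 had 6.79, 12.7 and 6.65 RPKM in the wild type against 1.76, 0.440 and 0.883 in the knockout, 8.41-fold lower (log2 fold change -3.07 ± 0.53 SE, edgeR adjusted p = 0.0455). At the later stage it measured 12.54, 17.9 and 36.2 against 2.38, 4.07 and 3.70 RPKM (adjusted p = 0.149, log2 fold change -2.71 ± 0.44 SE). Wild-type replicate 3 was the highest library for Lect1 at E12.5, and the knockout libraries were all below the lowest wild-type library. Cytl1 was low but even at E11.5, with 1.35, 1.27 and 1.28 RPKM in the wild type against 0.322, 0.311 and 0.361 in the knockout, 3.90-fold lower (log2 fold change -1.96 ± 0.39 SE, edgeR adjusted p = 0.0384). At E12.5 Cytl1 had 10.6, 18.7 and 36.9 against 2.62, 3.99 and 8.15 RPKM (adjusted p = 0.237, log2 fold change -2.18 ± 0.59 SE). The 3 wild-type libraries differed more from one another in Cytl1 at E12.5 than at E11.5.

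Scrg1, a secreted protein of chondrogenic cells, had 8.67, 5.63 and 6.90 RPKM in the E12.5 wild type and 0.595, 0.635 and 1.77 in the knockout, from 334 and 38 fragments (log2 fold change -2.83 ± 0.44 SE, adjusted p = 0.093). At E11.5 it had 23 and 4 fragments and was not tested. Susd5 had 2.84, 4.26 and 6.02 against 0.752, 1.83 and 2.06 RPKM at E12.5 without overlap (log2 fold change -1.50 ± 0.41 SE, adjusted p = 0.231). At E11.5, where the Susd5 groups overlapped, the log2 fold change was -1.84 ± 0.62 (SE, adjusted p = 0.135).

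**Figure D3:**
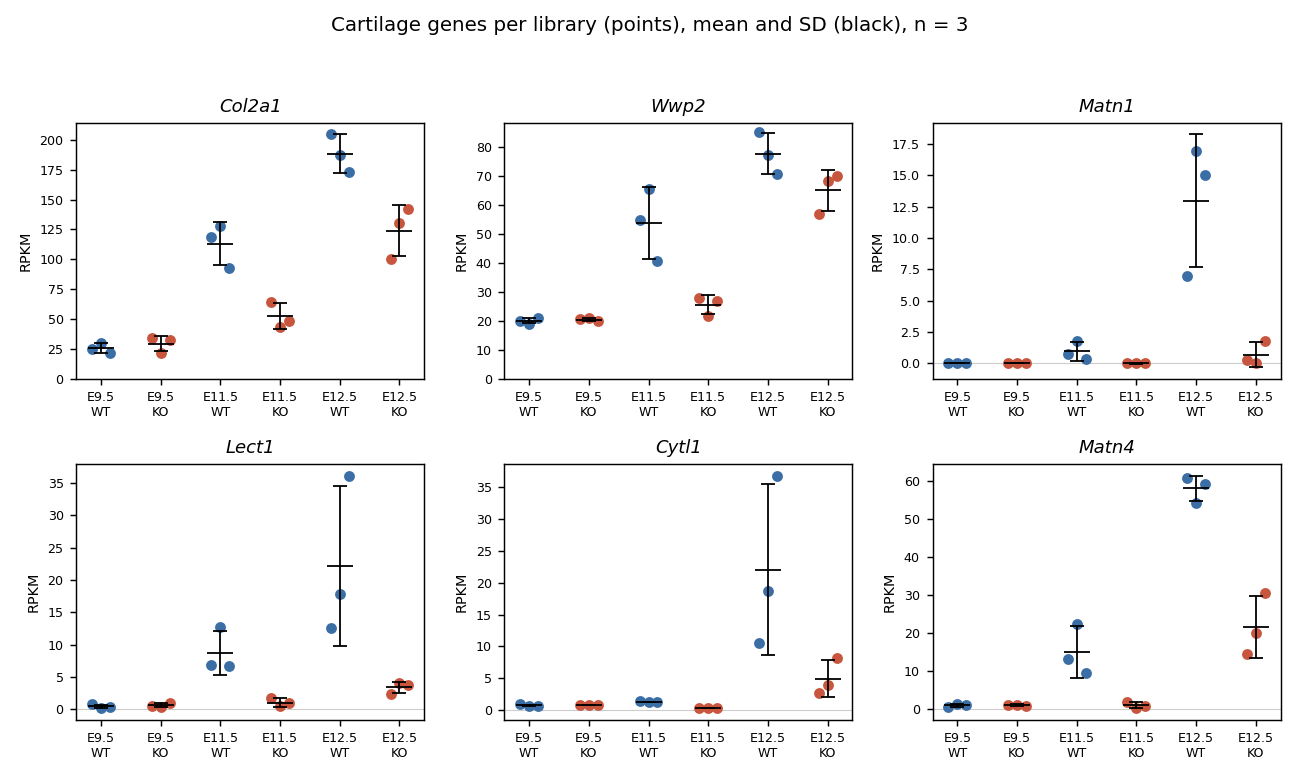
RPKM (y axis) of the 5 genes past the threshold at E11.5 and of Matn4 in each library (points) of each stage and genotype (x axis), with mean and SD in black. In each of the 6 panels the 3 knockout libraries lie below the 3 wild-type libraries at E11.5 and again at E12.5; levels of different stages come from separately normalized tables.

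Of the enzymes of chondroitin sulfate synthesis, Papss2, which makes the sulfate donor, had the largest difference. It had 4.98, 11.1 and 3.16 RPKM in the E11.5 wild type and 2.98, 1.29 and 1.67 in the knockout (log2 fold change -1.69 ± 0.60 SE, adjusted p = 0.195), and 33.3, 31.1 and 31.8 against 11.51, 19.9 and 21.5 at E12.5 (log2 fold change -0.86 ± 0.22 SE, adjusted p = 0.215). The Papss2 groups did not overlap at either stage. Chst11, which sulfates chondroitin, had log2 fold changes of -0.37 ± 0.11 (SE, adjusted p = 0.092) at E11.5 and -0.12 ± 0.07 (adjusted p = 0.483) at E12.5, where its groups overlapped. Xylt1, which attaches the first sugar of the chain to the core protein, overlapped between genotypes at each stage, at 1.72 to 2.50 and 1.70 to 1.94 RPKM at E12.5.

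Of the signalling and transcription genes, Wwp2 fell at E11.5. It had 54.9, 65.6 and 40.6 RPKM in the wild type against 27.9, 21.7 and 26.9 in the knockout, 2.10-fold lower (log2 fold change -1.07 ± 0.18 SE, edgeR adjusted p = 0.0399). At E12.5 it had 85.1, 77.3 and 70.8 against 56.9, 68.3 and 69.8 RPKM (adjusted p = 0.289, log2 fold change -0.26 ± 0.10 SE). Wild type and knockout did not overlap at either stage. Mir140, inside Wwp2, was listed at 0 in all 18 libraries. They were prepared with an mRNA kit, so the level of the microRNA cannot be read from this.

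Ihh, the hedgehog signal of prehypertrophic chondrocytes, was too low to test at E11.5, with 0.0526, 0.317 and 0.117 RPKM in the wild type against 0.0414, 0.00711 and 0.0950 in the knockout. In the older hindlimb it had 3.64, 4.39 and 1.66 RPKM in the wild type against 0.542, 1.09 and 1.72 in the knockout (log2 fold change -1.52 ± 0.49 SE, adjusted p = 0.262). Knockout replicate 3 lay above wild-type replicate 3, so the groups overlapped. Ihh was also present in the E9.5 field with its trunk, at 0.826, 0.558 and 1.18 RPKM in the wild type against 1.07, 0.509 and 0.422 in the knockout.

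Runx3, a RUNX factor of maturing chondrocytes, had 0.326, 0.715 and 0.421 RPKM in the E11.5 wild type and 0.323, 0.134 and 0.202 in the knockout (log2 fold change -1.15 ± 0.43 SE, adjusted p = 0.158). By E12.5 it measured 2.57, 2.86 and 2.64 against 0.737, 1.12 and 1.74 RPKM (adjusted p = 0.184, log2 fold change -1.16 ± 0.28 SE). The groups did not overlap at either stage, and the knockout mean was 45.0% and 44.6% of the wild-type mean. Nkx3-2, a repressor that acts early in cartilage formation, was uneven among libraries. It had 0.939, 2.66 and 0.699 against 1.03, 0.0388 and 0.207 RPKM at E11.5 (log2 fold change -1.73 ± 1.04 SE, adjusted p = 0.38) and 5.22, 2.25 and 2.36 against 2.11, 1.90 and 2.73 at E12.5 (log2 fold change -0.54 ± 0.36 SE, adjusted p = 0.501). Its groups overlapped at both stages.

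Trps1 and Pth1r had close values in both genotypes. Trps1, a zinc finger repressor that also acts in limb mesenchyme outside cartilage, had 16.2, 23.1 and 16.2 against 22.5, 15.8 and 19.7 RPKM at E11.5 and 18.02, 15.6 and 17.2 against 16.7, 19.2 and 16.2 at E12.5, with log2 fold changes of 0.06 ± 0.18 and 0.04 ± 0.08 (SE). Pth1r, the receptor of parathyroid hormone-related protein, had 30.97, 30.8 and 33.6 against 33.00, 35.3 and 30.01 RPKM at E11.5 and 49.9, 54.9 and 56.4 against 47.8, 50.2 and 54.2 at E12.5, with log2 fold changes of 0.05 ± 0.08 and -0.08 ± 0.07 (SE). The authors' tables mark the estimate of Pth1r as failed in 3 of these 12 libraries, wild-type replicates 2 and 3 of E11.5 and knockout replicate 3 of E12.5, whose values lie within the range of the others of their stage. Fgfr3, a receptor that slows chondrocyte division, overlapped at E11.5 and had 12.7 to 14.9 against 10.02 to 12.54 RPKM at E12.5 (log2 fold change -0.25 ± 0.10 SE, adjusted p = 0.313).

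Within a group, many of the cartilage genes put the libraries in the same order. The order was counted over these genes alone, so whether other genes share it was not tested. Of the 20 genes with a mean of at least 1 RPKM in the E11.5 wild type, 15 were highest in replicate 2 and 13 lowest in replicate 3. In the E11.5 knockout, 14 of 17 were highest in replicate 1 and 14 lowest in replicate 2. At E12.5 knockout replicate 1 was lowest for 22 of 25 and replicate 3 highest for 20, while no E12.5 wild-type library was highest or lowest for more than 13 of 28. The share of each library's fragments that fell in the 31 genes was 0.193% ± 0.0400 in wild-type and 0.114% ± 0.0217 in knockout libraries at E11.5 (SD, n = 3 each), and 0.357% ± 0.0114 and 0.242% ± 0.0338 at E12.5. At E9.5 it was 0.0618% ± 0.0055 and 0.0622% ± 0.0068.

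From E11.5 to E12.5 most of the cartilage genes rose in both genotypes. The test compares deposited fragments over the 12 hindlimb libraries, and stage cannot be told apart from the table or sequencing run of that stage. In the wild type 23 of the 30 genes tested rose and 0 fell, against 17.1% of all 15324 genes that rose, with a median log2 fold change of 1.52 against 0.00 for all genes. In the knockout 23 of 30 rose and 0 fell, against 20.4% of all genes, with a median of 1.96 against 0.01. Each E12.5 library lay above each E11.5 library, in fragments scaled by library total, for 26 of the 30 in the wild type (27.1% of all genes) and 25 in the knockout (35.9%). When each of the 12 libraries was left out in turn, 15 of the wild-type and 18 of the knockout calls remained in every fit. Of the 12 skeletal muscle markers 11 rose between the stages in each genotype, and their part in the rise of the cartilage genes was not tested.

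In the wild type the largest rises were those of Scrg1 (4.22 ± 0.68 log2 fold change and SE), Ihh (4.22 ± 0.71), Cytl1 (4.02 ± 0.49), Col10a1 (3.86 ± 0.99) and Comp (3.78 ± 0.67), genes that were near the limit of detection at E11.5 or, for Cytl1, near 1 RPKM. Of the genes with high levels, Col2a1 rose by 0.66 ± 0.17 (edgeR adjusted p = 0.0125), Col9a1 by 0.70 ± 0.14 and Pth1r by 0.69 ± 0.08. Not past the threshold were Col11a2, Col27a1, Epyc, Lect1, Xylt1, Trps1 and Nkx3-2, and of these only Trps1 had a negative fold change (-0.20 ± 0.15).

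In the knockout Col2a1 rose by 1.16 ± 0.17 (log2 fold change and SE, edgeR adjusted p = 0.000469), Matn4 by 4.27 ± 0.57, Wwp2 by 1.27 ± 0.16 and Papss2 by 3.07 ± 0.50. Acan rose by 4.78 ± 1.25, from 59 to 784 fragments in all, and Col10a1 passed from 2 fragments to 108, too few at E11.5 for a fold change to be read. The 7 genes tested that did not pass were Hapln1 (-0.45 ± 0.29), Matn3 (-0.32 ± 0.34), Comp (0.48 ± 0.73), Epyc, Xylt1, Trps1 and Nkx3-2. Hapln1, Matn3 and Comp passed in the wild type alone, and Col11a2, Col27a1 and Lect1 in the knockout alone (wild-type adjusted p = 0.0611, 0.11 and 0.0715, edgeR). The test of that difference between genotypes follows.

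**Figure D4:**
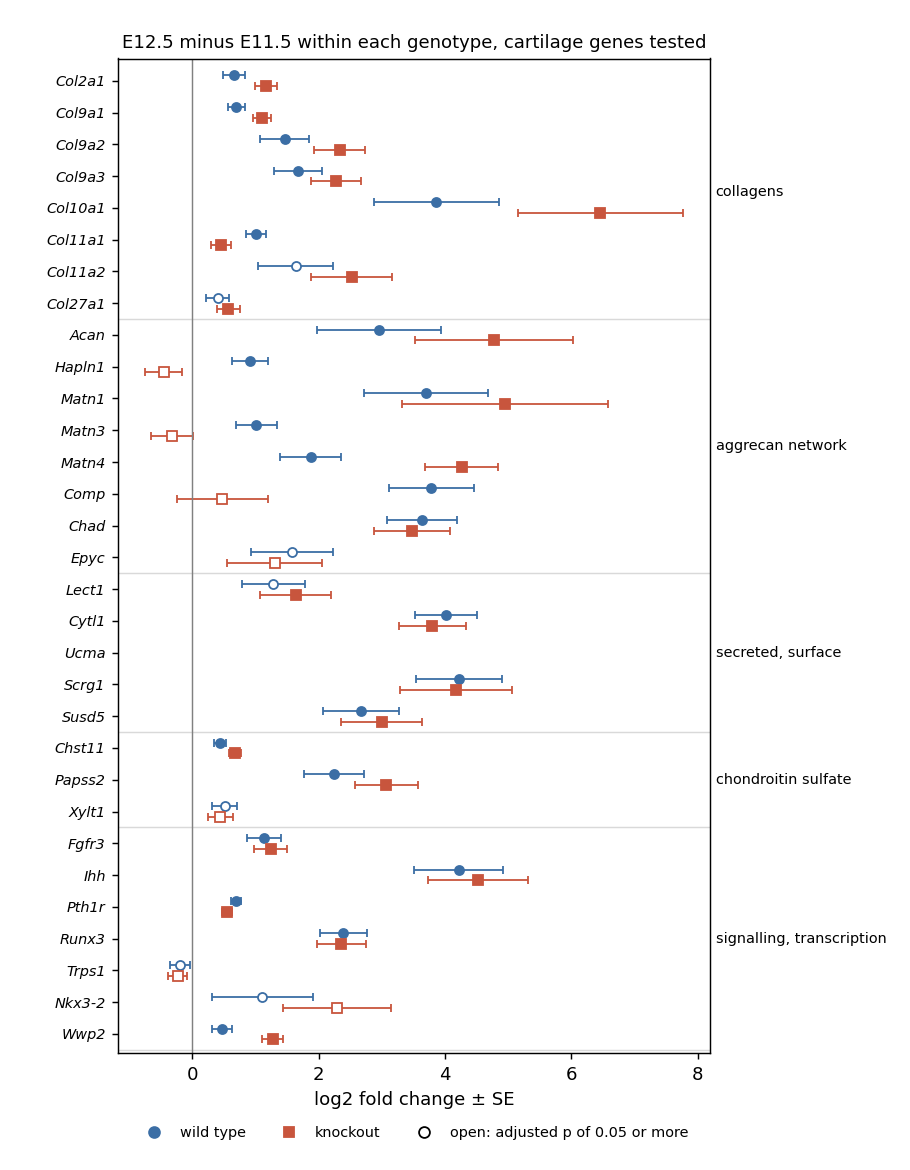
Log2 fold change from E11.5 to E12.5 (x axis) with its standard error for each cartilage gene tested (y axis, grouped by role) in the wild type (circles) and the knockout (squares), 3 libraries per group. Filled symbols mark an adjusted p under 0.05, reached by 23 genes in each genotype; the fold change of Col10a1 in the knockout rests on 2 fragments at E11.5.

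A change of the knockout effect between E11.5 and E12.5 passed an adjusted p of 0.05 with edgeR for 0 of the 30 genes (0.00653% of all 15324 genes passed), which does not show that the effects were equal. With an unadjusted p under 0.05 there were 6 of the 30, against 10.3% of all genes, and their adjusted p was 0.344 or more. DESeq2 called 1, Wwp2, against 0.822% of all genes. The estimated effect was less negative at E12.5 for Wwp2, by 0.81 ± 0.23 (log2 and SE, unadjusted p = 0.00423, edgeR), and for Matn4, by 2.39 ± 0.72 (unadjusted p = 0.00929). It was more negative at E12.5 for Comp (-3.30 ± 0.97, unadjusted p = 0.00512), Hapln1 (-1.37 ± 0.41, unadjusted p = 0.00766), Matn3 (-1.33 ± 0.47, unadjusted p = 0.0135) and Col11a1 (-0.56 ± 0.22, unadjusted p = 0.0254). Over the 30 genes, 18 had a positive and 12 a negative difference, with a median of 0.27 against -0.01 for all genes.

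Set beside the wild type of both stages, the E12.5 knockout held most of these genes at a level between them. The RPKM of the stages come from separately normalized tables, so the following is a description. An intermediate level largely restates the rise between stages and the lower E12.5 knockout levels given above, and was not counted over all genes. Of the 28 genes with a mean of at least 1 RPKM in the E12.5 wild type, 22 had an E12.5 knockout mean above the E11.5 wild-type mean and below the E12.5 wild-type mean, as Col2a1 with 124 between 113 and 189 RPKM. Hapln1, Matn1, Matn3 and Lect1 were below the E11.5 wild type, as Lect1 with 3.38 RPKM against 8.70. Col9a1 was above the E12.5 wild type, with 113 against 107 RPKM. Trps1 was lower in the later wild type than in the earlier one, and the knockout lay between them.

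Of the SOX genes that regulate cartilage, Sox9 fell at E11.5. Sox9, which drives most of the cartilage matrix genes, had 49.1, 50.7 and 42.95 RPKM in the wild type against 31.6, 23.01 and 28.2 in the knockout, without overlap (log2 fold change -0.79 ± 0.12 SE, edgeR adjusted p = 0.0198), and at E12.5 it had 64.98, 50.05 and 35.5 against 40.6, 55.5 and 45.9 RPKM with overlap (log2 fold change -0.08 ± 0.23 SE, adjusted p = 0.89). The call of Sox9 was lost without wild-type replicate 1, wild-type replicate 2 or knockout replicate 3 (adjusted p = 0.152, 0.0509 and 0.0972). Sox5 and Sox6, its partners, did not pass at either stage, and in the knockout Sox6 rose from E11.5 to E12.5 (1.66 ± 0.34 log2 fold change and SE), as did Sox9 (0.70 ± 0.20). Between those stages 20.4% of all genes tested rose in the knockout with edgeR. In the wild type Sox6 (0.86 ± 0.34, adjusted p = 0.0778, edgeR), Sox9 (0.01 ± 0.20, adjusted p = 0.984) and Sox5 did not pass. Without adjustment 1 of the 3 reached 0.05 there, as did 6769 of all 15324 genes tested. DESeq2 called 0 of the 3, and of all genes 2720 lower and 2858 higher. The difference between genotypes did not pass for any of them (adjusted p = 0.46 or more).

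Few genes of the other lists passed with edgeR at E11.5, where 1.01% of all genes tested passed and were lower. Of 28 tested genes of glycosaminoglycan and sulfate supply, 1 fell, Chpf, which extends chondroitin chains (log2 fold change -0.47 ± 0.10 SE, edgeR adjusted p = 0.0487), and the median was -0.10. Of 11 genes of hypertrophy and ossification, 2 fell, the transcription factor genes Mef2c (-0.87 ± 0.17, adjusted p = 0.0455) and Mef2d (-0.62 ± 0.11, adjusted p = 0.0247), both of which muscle also expresses. In these lists DESeq2 called 4 of 28 and 3 of 11, all lower (4.66% of all genes). An unadjusted p under 0.05 was reached by 9, of which 8 were lower, and by 5, all lower (22.2% of all genes in either direction). None of the 20 genes of collagen folding and secretion, 16 growth plate signalling partners or 21 other cartilage matrix genes passed with edgeR, with medians of -0.10, -0.08 and -0.50. DESeq2 called 5, 3 and 4 of them (9.3% of all genes), and 6, 4 and 6 had an unadjusted p under 0.05 (22.2% of all genes). Of these last lists, higher in the knockout were 1 DESeq2 call in the folding list and 1 gene each at the unadjusted level in the folding and signalling lists. At E12.5 none of these 5 lists had a gene past the threshold with edgeR. Fold changes were negative for 20 of 20 genes of collagen folding and secretion (median -0.28), 12 of 12 of hypertrophy and ossification (median -0.63), 19 of 21 other matrix genes (median -0.65) and 23 of 28 of the glycosaminoglycan list (median -0.07). An unadjusted p under 0.05 was reached by 13, 7, 9 and 7 genes of these lists (15.1% of all genes), each lower but for 1 of the other matrix genes. DESeq2 called 2, 5, 3 and 3, all lower (3.06% of all genes in either direction). Of the 17 signalling partners 14 were negative, DESeq2 called 3 (3.06% of all genes) and 4 had an unadjusted p under 0.05 (15.1% of all genes).

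From E11.5 to E12.5 many genes of these lists rose in both genotypes. Among all 15324 genes tested, 17.1% rose with edgeR in wild-type hindlimbs and 20.4% in knockout hindlimbs, and 2498 and 3226 genes fell. In the wild type 16 of 21 other cartilage matrix genes rose, among them Matn2, a matrilin of many tissues (1.95 ± 0.32 log2 fold change and SE), and Dcn, which encodes decorin (3.20 ± 0.53). In the knockout 15 of 21 rose, among them Tnc, tenascin C (2.76 ± 0.41), and Fmod, fibromodulin (2.43 ± 0.43). The collagen folding list had 12 of 20 rising in the wild type, such as the prolyl hydroxylation genes Crtap (0.81 ± 0.11) and Lepre1 (0.95 ± 0.13), and 10 rising and 2 falling in the knockout. Of the glycosaminoglycan list 11 of 28 rose and 1 fell in the wild type, and 17 rose and 1 fell in the knockout. Csgalnact1, which starts chondroitin chains, rose in both (2.53 ± 0.30 and 2.46 ± 0.30).

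Markers of other cell types differed in level between genotypes beside the cartilage genes. At E11.5, 3 of 12 skeletal muscle markers fell with edgeR, against 1.01% of all genes tested at this stage. Each of the 12 had a negative fold change (median -2.06), and 11 did not overlap between genotypes, against 14% of all genes. An unadjusted p under 0.05 was reached by 11, all lower (11.1% of all genes), and DESeq2 called 9 lower (4.66%). Their summed level was 56.6 to 171 RPKM in the wild type against 19.5 to 32.7 in the knockout. Wild-type replicate 2, highest for most cartilage genes, was also the highest of its group for the muscle markers, as was knockout replicate 1 of its own. Yolk sac and liver markers summed to 10.6 to 15.1 against 4.59 to 6.13 RPKM with 2 of 4 tested fallen, macrophage markers to 19.7 to 23.4 against 15.8 to 17.3 RPKM with 0 of 9 past the threshold with edgeR (5 at an unadjusted p under 0.05, where 22.2% of all genes lay, and 2 called lower by DESeq2, against 4.66%). Ectoderm markers summed to 137 to 165 against 176 to 184 RPKM with 0 of 9 past it (4 unadjusted, 3 called higher by DESeq2, against 4.64% of all genes). Of the limb mesenchyme markers Tbx4 fell and Lhx2 rose, with a median of 0.17 over 10. The sclerotome and the notochord lists each had 1 gene fallen, Tbx18 of 7 tested and T of 4 tested (1.01% of all genes). At E12.5 Tbx4 fell again (-0.83 ± 0.08 log2 fold change and SE, edgeR adjusted p = 0.0263). The muscle markers summed to 577 to 859.7 against 355 to 736 RPKM at that stage and the macrophage markers to 34.1 to 41.9 against 23.6 to 30.4. Of these 2 lists 0 genes passed the threshold with edgeR. An unadjusted p under 0.05 was reached by 2 and 3, where 15.1% of all genes lay. DESeq2 called 1 and 1 lower, against 2.32% of all genes. Neural markers summed to 25.1 to 25.6 against 19.3 to 20.5 RPKM, without overlap, with 0 of 5 past the threshold with edgeR (2 unadjusted, 2 called lower by DESeq2). Each of the 6 yolk sac and liver markers had a negative fold change (median -3.24), with 0 past the threshold with edgeR (1 unadjusted, 1 called lower by DESeq2). Their sum was 376, 12.3 and 37.3 RPKM in wild-type replicates 1 to 3 and 6.08, 30.7 and 7.70 in the knockout, so that wild-type replicate 1 stood apart. Knockout replicate 3, the highest knockout library for most cartilage genes, was also the highest for muscle markers. The sclerotome marker Uncx and the notochord marker Noto were at 0 in both groups of E12.5. The part of these markers in the cartilage differences was not tested.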

How the data were processed

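RNA for 18 libraries was isolated with the mirVana kit, prepared with the TruSeq Stranded mRNA kit and sequenced on a NextSeq, per the labels' protocols. FastQC, TopHat2 and Cuffdiff were used with the mouse build mm9, per the submitters' processing notes. For their versions, the gene annotation and the strand setting, nothing is given in the sources used here. The authors deposited 1 table per stage with estimated fragment counts and RPKM per gene and replicate, per the file headers, and each table was normalized on its own. The tables number replicates from 0 to 2, which were taken as replicates 1 to 3. Each lists 23929 genes, of which 2 duplicated date-like names and 6 genes with a failed estimate at 0 fragments were left out, and 2 columns of per-sample values per table were not used.

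The deposited estimated counts (1.79% of values were not whole) were rounded and tested with edgeR 4.0.16 in R 4.3.3, with TMM factors, filterByExpr and the robust quasi-likelihood test, and Benjamini-Hochberg adjustment over all genes tested at 0.05. Each genotype comparison used the 6 libraries of its stage. Comparisons between E11.5 and E12.5, and the change of the knockout effect between them, used 12 libraries in 1 fit. In simulated counts over 13623, 14473 and 14386 genes, 50 genes each were changed 1.5-, 2-, 3- and 4-fold. Of those changed 2-fold, 66% were recovered at E9.5, 84% at E11.5 and 84% at E12.5. The same fits made 14, 8 and 17 false calls, to be set against the genes called and not against all genes tested. Each gene was drawn independently with its fitted spread, without differences shared by the genes of a library. These shares therefore do not give the recovery in the deposited libraries, where Matn1, 19.5-fold lower at E12.5, did not pass. The deposited RPKM values served for levels and, on a log2 scale with a pseudocount of 1 or 0.1, for limma 3.58.1. DESeq2 1.42.0, other size factors, other filters, a replicate block, 18 libraries in 1 fit and leaving out each library were also tried. No pair of replicates was alike within counting noise (lowest chi-square over its degrees of freedom 7.89).

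The cartilage genes and the lists were chosen with earlier results of these data known. Values in every library are given for the cartilage genes past the threshold in a genotype comparison and for Col2a1, Acan, Col9a1, Col10a1, Ihh, Runx3 and Nkx3-2. Other cartilage genes given per library, the collagen IX ratios and the markers named were picked with their values in view. Of each pathway list up to 3 genes past the threshold were named, smallest p first. Promoter windows come from RefSeq (GRCm38.p6) and were not combined with mm9 coordinates.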

Additional observations from a re-analysis of the deposited data

How the results depend on the processing

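At E11.5, 5 cartilage genes passed in the reported fit and all were lower. DESeq2 called 12, the replicate block 1 (Col2a1), limma on log2(RPKM + 1) 3, and a minimum mean of 1 RPKM 3, and every call by these was lower. Left out in turn, single libraries gave 0 to 5 calls at E11.5, 0 to 1 at E12.5, 0 to 0 at E9.5 and for the change of the knockout effect, 16 to 24 for the wild type between stages and 18 to 24 for the knockout. At E12.5 the reported count of 0 became 20 with DESeq2 and 11 with the replicate block, all lower. The block called 0.521% of all genes lower at E11.5 and 2.19% at E12.5. For the change of the knockout effect DESeq2 called 1, Wwp2, against 0. The block gave 0 at E9.5 and for the change of the effect, 21 in the wild type between stages and 22 in the knockout, where Hapln1 was called lower. Of all genes it called 29.7% in the wild type between stages and 38.6% in the knockout, in either direction. The limma, RPKM filter and single-library counts are given without a share over all genes. Same-numbered libraries correlated across genes at 0.04, -0.23 and 0.05 at E11.5 and at 0.17, -0.03 and 0.23 at E12.5. Libraries of different number correlated at -0.36 to 0.31 at E11.5 and at -0.22 to 0.05 at E12.5, where 0.17 and 0.23 lay above that range. The labels do not state that the numbers pair libraries, so they were not taken as pairs, and whether the E12.5 libraries were paired is not known. The cause of the differences between settings was not tested. Of the values of single genes under all alternatives, 2750 kept their side of the threshold, 111 lost a call, 71 gained one and 0 changed sign with a call. At E11.5 Col10a1, Chad, Epyc, Scrg1, Ihh and Ucma had too few fragments to test.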
